A study of Mus musculus with 3 samples.

Results

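The genes described here encode semaphorins, plexins, ephrins and Eph receptors, the cell-surface and secreted proteins by which cells attract, repel and sort one another. Members were taken by symbol: every gene of the count tables whose symbol starts with Sema or Plxn, or with Epha, Ephb, Efna or Efnb followed by a digit. The rule gave 54 of 31053 genes. They comprise 28 ligands (20 semaphorins, 5 ephrin-A and 3 ephrin-B genes), 23 receptors (9 plexins, 9 EphA and 5 EphB genes) and 3 antisense transcripts named after Plxna4. All 54 were matched by gene identifier to a GRCm38 position.

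The study profiled single cells of organoids grown from Lgr5+ cochlear progenitor cells of C57BL/6 mice, with 1 library in each of 3 groups. The expansion group was collected at passage 2 (day 8) in medium with 3 growth factors, namely EGF at 20 ng/mL, IGF at 50 ng/mL and bFGF at 10 ng/mL, with Y-27632 (10 um, the unit as labelled), CHIR99021 (3 um) and LPA (2.5 um), over a base of DMEM/F-12 and GlutaMAX with penicillin/streptomycin, N2 and B27. The day 5 and day 25 groups were first expanded in the same medium and then moved to differentiation medium with the proteins Shh, BDNF and bFGF and the compounds RA, A83-01 and LY4115775, of which LY4115775 was given for the initial 5 days only. Trypsin (0.125%, 25 min) freed the cells, living singlets were sorted after DAPI staining, and 10x Genomics 3' v3 libraries were made. Innervation of the organoids was not examined here, and the sources used here give neither the age nor the number of the mice nor whether they were pooled. Each group is therefore 1 library, so groups could not be tested against each other, and every interval below covers counting error only.

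Semaphorins signal mostly through plexins, with neuropilins as partners for the secreted class 3 members, and ephrins signal through Eph receptors, with the membrane-bound ephrin able to signal back into its own cell. Ephrin-A proteins are held to the membrane by a lipid anchor and ephrin-B proteins span it. In the mouse cochlea these families are known for sorting and repelling the axons of spiral ganglion neurons as they grow through otic mesenchyme to the hair cells.

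After filtering (at least 500 genes and at most 20% mitochondrial UMIs) and removal of called doublets, 25851 expansion, 13200 day 5 and 6111 day 25 cells were kept, with medians of 4693, 5853.5 and 8475 UMIs. Called doublets were 7.66%, 4.69% and 2.44% against an expected 23.3%, 11.6% and 5.29%, so doublets remain, and 22 to 133 barcodes were shared between pairs of libraries. Cells were classed by UMIs. Otor-high cells held Otor, an otic mesenchyme gene, at 1000 CPM (counts per 1000000 UMIs, here of the cell) or more and above Epcam (4719, 4948 and 490 cells). Pou4f3-positive cells held at least 1 UMI of Pou4f3, the hair cell transcription factor, and were not Otor-high (274, 655 and 1835 cells). Other Epcam-positive cells held an Epcam UMI and no Pou4f3 UMI (16683, 6856 and 3580 cells). These classes are ranges rather than cell types, and their limits cut through populations: 114, 339 and 301 Pou4f3-positive cells held a single Pou4f3 UMI, and 2235, 415 and 121 Otor-high cells lay between 1000 and 2000 CPM while 1372, 249 and 88 cells lay between 500 and 1000. Of 15 listed hair cell markers, Pou4f3 among them, 14, 14 and 15 reached 10 CPM in Pou4f3-positive cells, here over UMIs summed across cells. In other Epcam-positive cells 4, 4 and 6 did, with sums of 117, 180 and 285 CPM. In Otor-high cells 1, 4 and 6 did, with sums of 99.4, 329 and 620 CPM. Of 12 supporting cell markers, 8, 7 and 7 reached 10 CPM in Pou4f3-positive cells, against 6, 7 and 7 in other Epcam-positive cells. Their sums were 908, 1569 and 3878 CPM, against 847, 1903 and 3804 CPM. Otor, which the class rule used, stood in Pou4f3-positive cells at 3.27%, 1.47% and 0.111% of its level in Otor-high cells, and the part of free RNA, of doublets and of cells under the Otor bound in this was not tested. A 3' library counts transcript ends, so CPM of different genes are set side by side without scaling by length.

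Of the 54 members, 22, 26 and 26 reached 10 CPM in the expansion, day 5 and day 25 libraries, and 41 did so in a library or in a class of cells. Of the other 13, Plxna4os3 was at 0 in all libraries (floor 3 UMIs, or 0.0162, 0.0228 and 0.0414 CPM), and Epha6, Epha8, Epha10, Plxna4os1 and Plxna4os2 stayed under 0.05 CPM in each library. Members together took 0.0776%, 0.101% and 0.0939% of all UMIs in the expansion, day 5 and day 25 libraries.

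**Figure D1:**
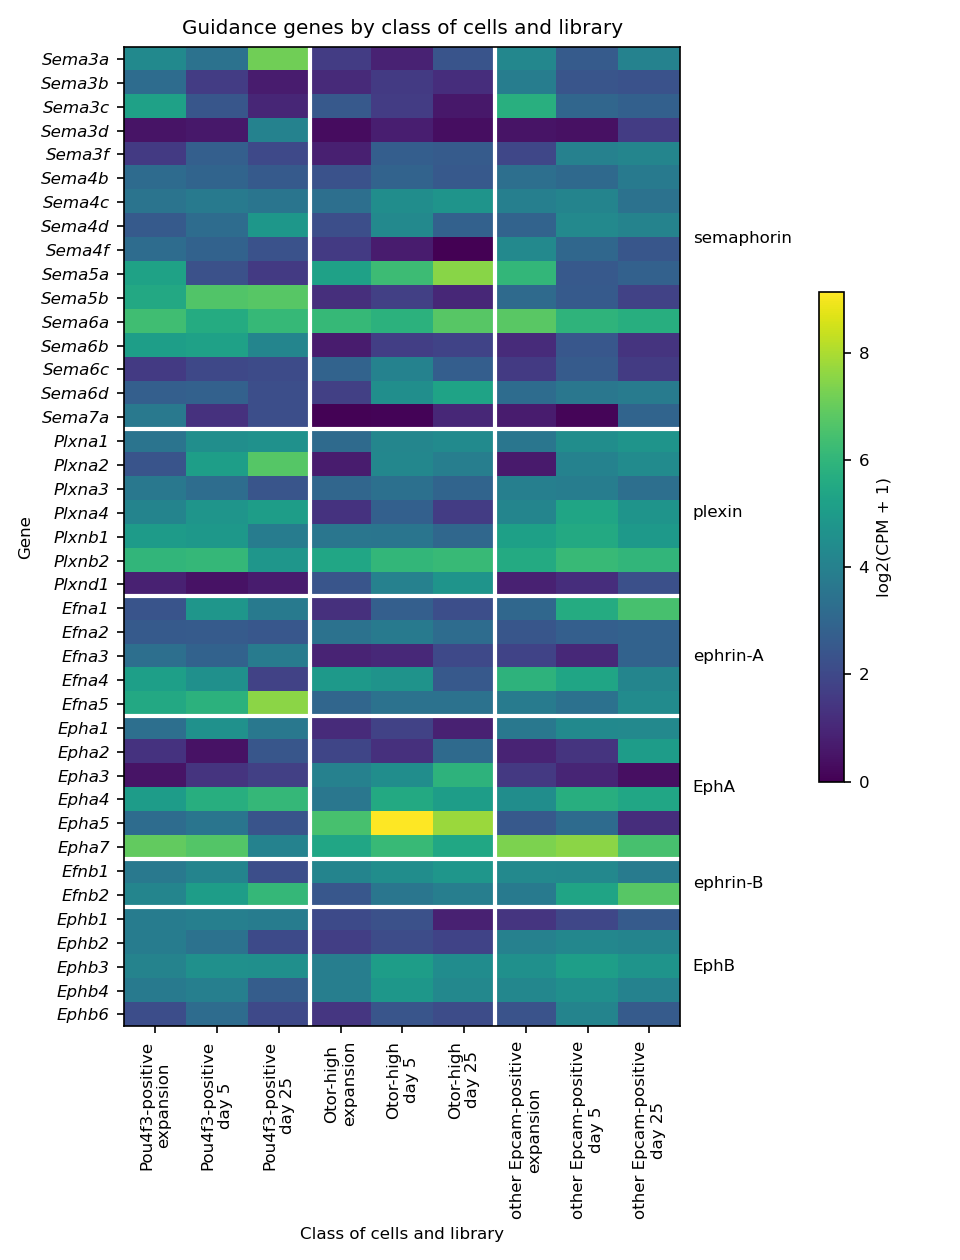
Levels of the 41 members that reached 10 CPM in a library or class, as log2(CPM + 1) of UMIs summed over cells, for 3 classes of cells in 3 libraries (columns), grouped by family (rows). The brightest cell is Epha5 in Otor-high cells on day 5 (562 CPM). Sema3a, Sema5b, Plxna2 and Efna5 are bright in Pou4f3-positive cells on day 25, and Epha7 and Efna1 are brighter in other Epcam-positive cells.

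Sequence was taken for the genes that stood higher in Pou4f3-positive cells on both days of differentiation (Sema5b, Sema6b, Efna5, Ephb1 and Plxna2) and in Otor-high cells in all libraries (Epha3 and Epha5), as the 250 bases before the start of each gene in RefSeq (build GRCm38.p6). The Sema5b and Plxna2 windows overlap the gene at its GENCODE position, so they do not lie wholly before it. The following 4 are shown because they belong to an ephrin-A ligand of the Pou4f3-positive cells, to an EphB receptor of the same cells and to the ephrin-A receptors of the Otor-high cells. Capitals mark the GC box, searched as GGGCGG on both strands. All run 5′ to 3′ on the minus strand, the strand of the gene.
Efna5, chr17:62881318-62881567: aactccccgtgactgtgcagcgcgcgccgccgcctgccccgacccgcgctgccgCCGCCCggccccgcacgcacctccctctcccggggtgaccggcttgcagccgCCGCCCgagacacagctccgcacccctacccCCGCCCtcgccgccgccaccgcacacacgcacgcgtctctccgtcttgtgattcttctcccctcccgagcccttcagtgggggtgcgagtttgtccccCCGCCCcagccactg
Ephb1, chr9:102354694-102354943: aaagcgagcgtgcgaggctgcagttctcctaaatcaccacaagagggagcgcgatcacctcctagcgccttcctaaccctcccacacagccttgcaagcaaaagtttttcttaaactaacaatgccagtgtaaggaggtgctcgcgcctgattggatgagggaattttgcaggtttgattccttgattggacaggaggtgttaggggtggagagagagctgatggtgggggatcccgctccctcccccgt
Epha3, chr16:63864176-63864425: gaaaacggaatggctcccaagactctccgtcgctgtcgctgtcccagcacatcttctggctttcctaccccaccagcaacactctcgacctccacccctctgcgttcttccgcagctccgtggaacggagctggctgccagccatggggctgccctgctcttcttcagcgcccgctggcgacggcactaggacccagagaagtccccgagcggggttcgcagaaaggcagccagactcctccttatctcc
Epha5, chr5:84417383-84417632: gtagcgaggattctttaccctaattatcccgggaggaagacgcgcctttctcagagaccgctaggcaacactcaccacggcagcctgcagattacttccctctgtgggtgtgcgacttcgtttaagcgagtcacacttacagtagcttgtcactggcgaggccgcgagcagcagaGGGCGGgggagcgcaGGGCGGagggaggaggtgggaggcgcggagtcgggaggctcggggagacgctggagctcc
The Efna5 window held 4 GC boxes and 74.8% G and C, and the Epha5 window held 2 boxes and 62.4%. The Ephb1 window (54.0% G and C) and the Epha3 window (62.8%) held 0. The GC box was present in 33.0% of 32536 promoter windows of the same length, whose median share of G and C was 52.4%. The E-box CAGNTG, which Atoh1 and other basic helix-loop-helix factors bind and which 44.8% of windows hold, was at 0 in all 7 windows searched. The sequence CATTAA, the core bound by factors of the Pou4f3 family, was also at 0 in the 7 windows and present in 7.95% of all windows. No match says only that these letters are not in these windows.

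Pou4f3-positive cells on day 25 stood out by 3 secreted or membrane ligands and a plexin: Sema5b, Efna5, Sema3a and Plxna2 each passed 100 CPM there. Calls required that CPM + 1 differ by at least 2-fold, with at least 10 CPM on either side, and folds are ratios of CPM with exact 95% counting intervals. Of 29 members measured on day 25, 7 were higher in Pou4f3-positive than in other Epcam-positive cells (18.8% of all genes measured were) and 12 were lower (17% of all genes). On day 5, 5 of 27 were higher (11.6% of all genes) and 2 were lower (3% of all genes). In expansion, 5 of 26 were higher (8.39% of all genes) and 1 was lower (0.768% of all genes). The share of members called higher on day 25 was thus near the background, and that of members called lower was above it.

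Sema5b encodes a transmembrane semaphorin that developing hair cells make and that limits branching of spiral ganglion neurons in the mouse (GRCm38 chr16:35541145-35664732, plus strand). It was at 44.5, 99.4 and 108 CPM in Pou4f3-positive cells of the expansion, day 5 and day 25 libraries, against 7.83, 5.03 and 2.48 CPM in other Epcam-positive cells. Pou4f3-positive cells were above the other epithelial cells in every library, by 5.69-fold (4.66 to 6.89), 19.8-fold (17.6 to 22.2) and 43.6-fold (36.2 to 52.9). In Otor-high cells it was at 1.34, 2.29 and 1.03 CPM. With cells thinned to 2000 UMIs, a Sema5b UMI was found in 7.78%, 14.5% and 15.0% of Pou4f3-positive cells, against 1.34%, 0.976% and 0.680% of other Epcam-positive cells. Without thinning the shares were 30.7%, 31.3% and 45.1%, against 6.23%, 5.86% and 3.1%, and 0.572%, 1.17% and 0.816% in Otor-high cells. Thinning left out 17, 180 and 104 Pou4f3-positive cells. Shares after thinning, here and below, use the classes set before it.

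Efna5 encodes ephrin-A5, which in the mouse cochlea signals through EphA4 to keep type I afferent fibres away from outer hair cells (chr17:62604184-62881317, minus strand). Its level was 44.2, 58.0 and 185 CPM in Pou4f3-positive cells, against 13.1, 9.55 and 20.0 CPM in other Epcam-positive cells. The excess was 3.38-fold (2.77 to 4.08) in expansion, 6.07-fold (5.41 to 6.81) on day 5 and 9.27-fold (8.63 to 9.97) on day 25. On day 25 a UMI was present in 22.1% of thinned Pou4f3-positive cells (53.7% unthinned), against 3.81% of thinned other Epcam-positive cells (16.8% unthinned) and 1.66% of thinned Otor-high cells (6.33% unthinned), with unthinned medians of 8794, 8865 and 7462.5 UMIs.

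Sema3a, a secreted repellent that acts through neuropilin-1 and A-type plexins (chr5:13125414-13602565, plus strand), had a different course. It was at 19.2, 9.79 and 140.0 CPM in Pou4f3-positive cells of the expansion, day 5 and day 25 libraries, against 17.8, 5.13 and 15.7 CPM in other Epcam-positive cells. The classes were close in expansion, and by day 25 Pou4f3-positive cells were 8.90-fold higher (8.20 to 9.66). Sema3d, another secreted class 3 semaphorin, was at 0.384, 0.496 and 15.8 CPM in Pou4f3-positive cells, against 0.400, 0.338 and 2.10 CPM in other Epcam-positive cells. With 1 and 4 UMIs in Pou4f3-positive cells, it was under the 10 CPM needed for a call in expansion and on day 5, and on day 25 it was 7.51-fold higher (5.98 to 9.51).

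Sema6b, a transmembrane ligand of A-type plexins, ran the other way. It was at 33.4, 36.7 and 16.6 CPM in Pou4f3-positive cells, against 1.20, 4.53 and 1.59 CPM in other Epcam-positive cells, which is 27.8-fold (21.3 to 36.2), 8.09-fold (6.94 to 9.42) and 10.5-fold (8.13 to 13.6) higher. Sema7a, a lipid-anchored semaphorin, was called higher in expansion only, at 11.9 against 0.637 CPM (18.7-fold, 12 to 28.3, on 31 UMIs in Pou4f3-positive cells). On day 5 it was at 1.49 against 0.0900 CPM and on day 25 at 3.63 against 6.61 CPM, both under the bound for a call.

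**Figure D2:**
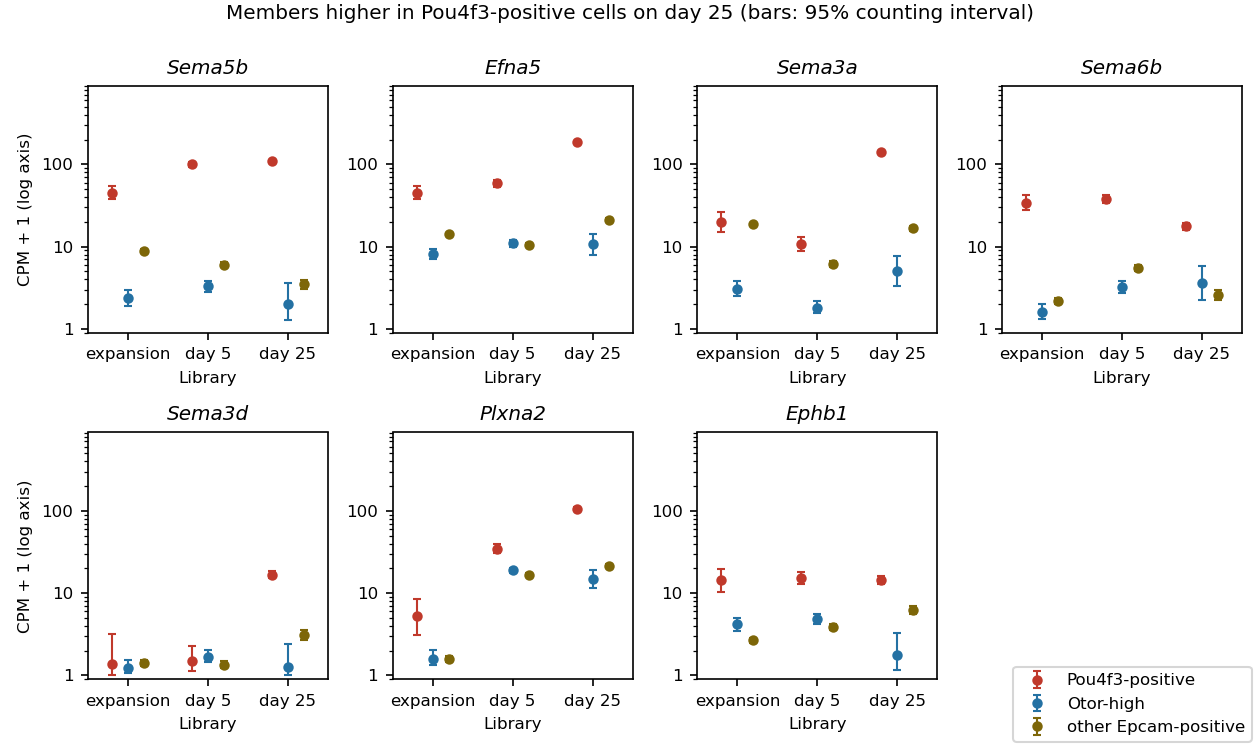
Level (CPM + 1, log axis) of the 7 members called higher in Pou4f3-positive than in other Epcam-positive cells on day 25, by library and class of cells, with 95% Poisson counting intervals. In Pou4f3-positive cells Sema5b, Efna5, Sema6b, Plxna2 and Ephb1 lie above both other classes in all libraries. With the bound of 1 Pou4f3 UMI plotted here, Sema3a and Sema3d pass 2-fold on day 25 only (140.0 and 15.8 CPM in Pou4f3-positive cells).

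On the receptor side, Plxna2, an A-type plexin that binds class 6 semaphorins (chr1:194618218-194816869, plus strand), was at 4.22, 33.8 and 106 CPM in Pou4f3-positive cells, against 0.569, 15.7 and 20.3 CPM in other Epcam-positive cells. On day 25 it was 5.23-fold higher (4.84 to 5.64), and it made up 50.8% of plexin UMIs in Pou4f3-positive cells. The day 5 difference was 2.16-fold (1.89 to 2.46, log2 ratio 1.06) and was under the bound for a call in 6 of the alternatives, with log2 ratios of 0.87 with TMM scaling, 0.77 at no more than 10% mitochondrial UMIs and 0.22 after thinning. For ratios after thinning, cells were classed anew (261 Pou4f3-positive cells on day 5), so cells that lost their Pou4f3 UMI changed class. The part of this change in the thinned ratios was not tested. With the classes set before thinning, a Plxna2 UMI was found on day 5 in 3.16% of thinned Pou4f3-positive cells, against 3.23% of other Epcam-positive cells. Ephb1, a receptor for ephrin-B ligands, was at 13.4, 14.4 and 13.4 CPM in Pou4f3-positive cells, against 1.66, 2.87 and 5.19 CPM in other Epcam-positive cells, an excess of 8.09-fold (5.51 to 11.6), 5.01-fold (3.99 to 6.27) and 2.58-fold (2.16 to 3.08). With cells of at most 10% mitochondrial UMIs, which leaves 1190 of the 1835 Pou4f3-positive cells of day 25, the day 25 log2 ratio of Ephb1 was 0.79 in place of 1.22. After thinning, with cells classed anew, it was 0.71.

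The 12 members lower in Pou4f3-positive than in other Epcam-positive cells on day 25 were 6 receptors and 6 ligands. Epha7, an ephrin-A receptor that in the mouse is needed by spiral ganglion neurons to innervate hair cells, was at 15.7 CPM in Pou4f3-positive cells, against 88.6 CPM in other Epcam-positive cells (5.66-fold lower, 5.05 to 6.37). Epha2, the main receptor of ephrin-A1 in epithelia, was at 4.47 against 32.5 CPM (7.28-fold lower, 5.89 to 9.09). Its ligand Efna1 was at 12.3 against 89.1 CPM (7.23-fold lower, 6.37 to 8.25). Sema3f, a secreted semaphorin that keeps type I axons from the outer hair cell region in the mouse, was at 3.09 against 16.7 CPM (5.39-fold lower, 4.16 to 7.08). The rest of the 12, with 2.13-fold to 6.79-fold lower values, were Efna4, Ephb2, Efnb1, Sema6d, Ephb4, Sema4b, Plxnb2 and Plxnb1. Plxnb2, which binds class 4 semaphorins, was at 63.4, 66.1 and 26.9 CPM in Pou4f3-positive cells, against 47.2, 70.4 and 63.3 CPM in other Epcam-positive cells.

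The bound of 1 Pou4f3 UMI mattered most on day 5. With at least 3 Pou4f3 UMIs (103, 230 and 1324 cells), 7 members were higher and 12 lower on day 5, in place of 5 and 2, while the shares of all genes called were 20.2% and 17.1%, in place of 11.6% and 3%. On day 25 the counts were 7 and 12 under both bounds, with 20.7% and 18.6% of all genes called under the stricter one. In expansion 7 were higher (11.4% of all genes) and 3 lower (5.02% of all genes). The larger counts on day 5 came with larger shares over all genes. The share of members called lower there was still above the 17.1% of all genes, even with all 54 members as the base. Under the stricter bound Sema5b was at 193 CPM and Efna5 at 111 CPM on day 5, against 5.03 and 9.55 CPM in other Epcam-positive cells. Sema3a, not called on day 5 with at least 1 Pou4f3 UMI, was at 15.0 against 5.13 CPM with at least 3 (2.93-fold higher, 2.18 to 3.87). Epha7 on day 5 was at 29.5 CPM with at least 3 Pou4f3 UMIs and at 103 CPM with at least 1, against 187 CPM in other Epcam-positive cells. Efna1 was at 5.37 and 27.1 CPM under the same bounds, against 47.8 CPM. On day 25 the stricter bound gave Sema3a at 160 CPM, Sema5b at 123 CPM and Epha7 at 6.46 CPM.

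**Figure D3:**
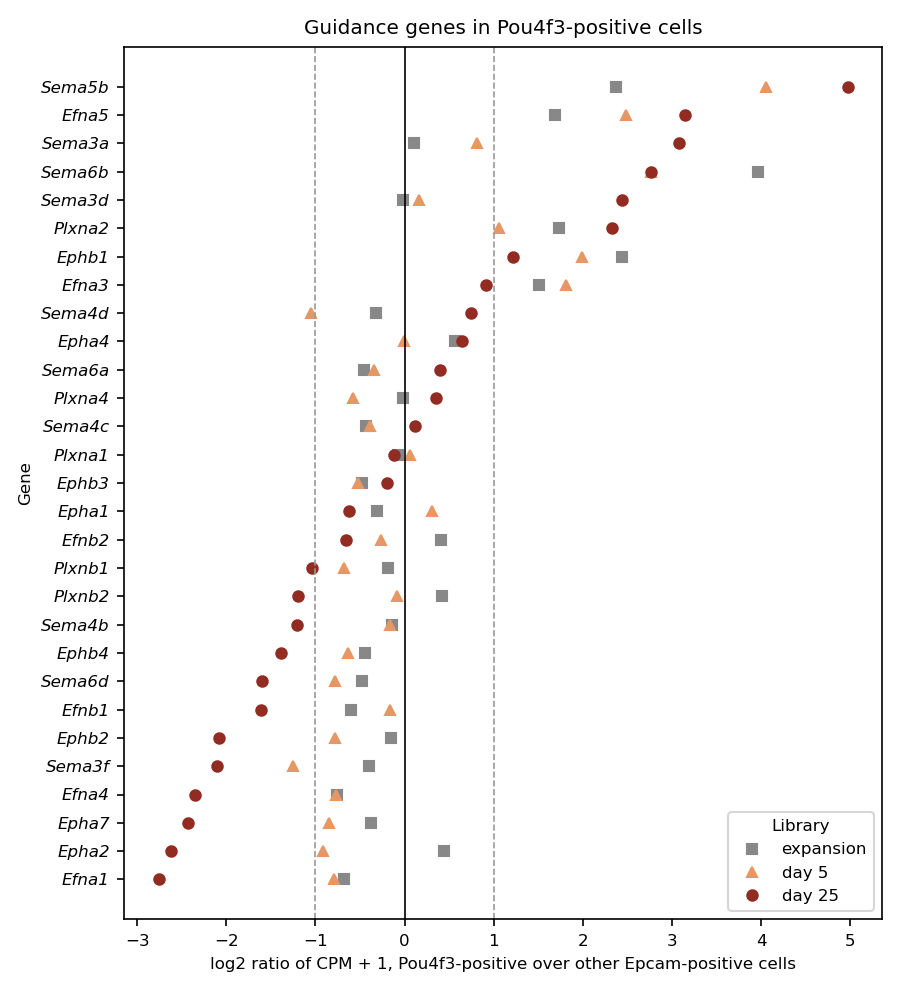
Log2 ratio of CPM + 1, Pou4f3-positive over other Epcam-positive cells, of the 29 members measured on day 25, in 3 libraries, with dashed lines at 2-fold. From Sema5b at the top (43.6-fold higher on day 25) to Efna1 at the bottom (7.23-fold lower), day 25 points lie farther from 0 than those of the other libraries for most genes, with Sema6b, Ephb1 and Efna3 among the exceptions.

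Markers of other cells were read beside these values. Of 11 listed neuron markers, 4, 3 and 4 reached 10 CPM in Pou4f3-positive cells, with sums of 214, 337 and 1056 CPM, against 63.6, 133 and 148 CPM in other Epcam-positive cells. The sums rested on Nefm, Nefl, Isl1 and Snap25, while Prph was at 0 in each library, Neurod1 was at 0, 1.61 and 0 CPM and Tubb3 at 1.54, 1.12 and 0.196 CPM. Of 12 otic mesenchyme markers, 3, 4 and 3 reached 10 CPM in Pou4f3-positive cells of the expansion, day 5 and day 25 libraries, with sums of 477, 1249 and 220.2 CPM, against 3, 4 and 3 with sums of 731, 2529 and 1778 CPM in other Epcam-positive cells. The part of these genes' source cells in the guidance values was not tested.

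Within day 25 Pou4f3-positive cells, a further division was made by Slc26a5, the motor protein gene of outer hair cells, after the values above had been seen. The 1145 cells with a Slc26a5 UMI (median 11070 UMIs) held Sema3a at 172 CPM, against 28.7 CPM in the 690 cells without one (median 4416 UMIs). Efna5 was at 222 against 56.2 CPM, Plxna2 at 129 against 27.2 CPM, Sema5b at 129.8 against 32.5 CPM and Sema3d at 19.6 against 2.41 CPM. Epha7 was at 6.32 against 48.0 CPM and Efna1 at 5.18 against 37.1 CPM. Epcam, at 985 against 2378 CPM, and Pou4f3, at 773 against 584 CPM, also differed between these cells, and so did depth. The part of depth and of epithelial RNA in these differences was not tested.

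Between the days within Pou4f3-positive cells, the day 25 cells were higher than the day 5 cells in 6 of 25 measured members (19.8% of all genes) and lower in 9 (10.6% of all genes). Sema3a had 140.0 CPM in day 25 cells, against 9.79 CPM in day 5 cells (14.3-fold higher, 11.4 to 18.1). Sema4d, Efna5, Plxna2 and Efnb2 were also called higher, by 3.29-fold, 3.19-fold, 3.13-fold and 2.04-fold. Sema3d was the last of the 6, with a ratio of 31.8 that rests on 321 UMIs on day 25 and 4 UMIs on day 5 (12.3 to 117). Sema4d, a transmembrane ligand of plexin-B1, had 27.8 CPM in day 25 cells, against 8.43 CPM in day 5 cells. Those lower on day 25 were Efna4 (9.40-fold), Epha7 (6.57-fold), Efnb1 (4.53-fold), Ephb4 (2.64-fold), Epha5 (2.59-fold), Plxnb2 (2.45-fold), Sema6b (2.21-fold), Efna1 (2.20-fold) and Plxnb1 (2.11-fold). Several of these calls depended on the class bound. With at least 3 Pou4f3 UMIs, 7 of 23 measured members were higher on day 25 than on day 5 (18% of all genes) and 7 lower (9.28% of all genes). There the excess of Efna5 on day 25 was 1.90-fold, under the bound for a call, and the log2 ratios of Efna1, Ephb4 and Plxnb1 were 0.07, −0.11 and −0.94. After thinning and classing anew, Efna1, Ephb4 and Plxnb1 had 1, 1 and 3 UMIs in Pou4f3-positive cells of day 5, at or under the floor of 3 UMIs, so no direction was read there. With no more than 10% mitochondrial UMIs Sema4d (log2 ratio 0.91), Efnb2 (0.84) and Efna1 (−0.78) were under the bound for a call. Efnb2 was also under it with TMM scaling (0.92), with median of ratios scaling (0.83) and with at least 1000 genes (0.97). So were Efna1 with doublets kept (−0.84) and Epha5 after thinning (−0.99). A pseudocount of 5 CPM took Efnb2, Epha5, Ephb4, Sema6b, Efna1 and Plxnb1 under 2-fold. Under the stricter Pou4f3 bound Sema3a was 10.6-fold higher (8.15 to 14.1), Efnb1 5.82-fold lower and Sema6b 3.76-fold lower on day 25, and Sema5b was 1.58-fold lower, at 123 against 193 CPM.

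By ratio of CPM + 1, Epha5 led the members higher in Otor-high than in other Epcam-positive cells in each library. On day 25, 8 of 28 measured members were higher in Otor-high than in other Epcam-positive cells (13.3% of all genes) and 13 were lower (12.7% of all genes). Those higher were 3 receptors and 5 ligands, and those lower were 6 receptors and 7 ligands. On day 5, 5 of 28 were higher (10.9% of all genes) and 9 lower (11.1% of all genes). In expansion, 2 of 24 were higher (4.51% of all genes) and 11 lower (12.4% of all genes). Otor and Epcam set these classes, so their own levels there describe the rule and are not a result.

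Epha5, an ephrin-A receptor (chr5:84054761-84417382, minus strand), was at 87.7, 562 and 215 CPM in Otor-high cells of the expansion, day 5 and day 25 libraries, against 4.88, 8.07 and 1.27 CPM in other Epcam-positive cells. That is 18-fold (16.5 to 19.6), 69.6-fold (64.6 to 75.1) and 169-fold (130.1 to 224) higher. On day 5 a UMI was found in 57.8% of thinned Otor-high cells (75.9% unthinned), against 1.48% of thinned other Epcam-positive cells (6.56% unthinned). The related receptor Epha3 (chr16:63543534-63864175, minus strand) was at 15.1, 21.4 and 59.0 CPM in Otor-high cells, against 1.85, 0.945 and 0.297 CPM, an excess of 8.18-fold (6.94 to 9.64), 22.7-fold (18.1 to 28.8) and 199-fold (116 to 369, on 14 UMIs in other Epcam-positive cells). Both receptors bind ephrin-A5, and Efna5 itself was at 7.18, 9.94 and 9.78 CPM in Otor-high cells, under its level in Pou4f3-positive cells. Epha4, the receptor that responds to both ephrin classes, was at 11.2, 45.6 and 32.7 CPM in Otor-high cells, against 21.2, 52.0 and 41.8 CPM in other Epcam-positive cells, and was called in none of these comparisons.

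Sema5a, a transmembrane semaphorin, was at 36.1, 74.9 and 181 CPM in Otor-high cells, against 65.1, 4.88 and 6.08 CPM in other Epcam-positive cells. Otor-high cells were lower than the epithelial cells in expansion, without reaching 2-fold, and 15.3-fold (13.9 to 17) and 29.8-fold (26.0 to 34.3) higher on days 5 and 25. The epithelial level on day 5 was 13.3-fold under that in expansion (12.1 to 14.7). Plxnd1, the plexin of blood vessels and of Sema3e, was at 4.26, 15.2 and 25.7 CPM in Otor-high cells, against 0.780, 1.29 and 3.69 CPM, 11.8-fold (9.59 to 14.5) higher on day 5 and 6.98-fold (5.41 to 8.98) higher on day 25. Sema6c was higher on day 5 only, at 15.4 against 5.10 CPM. Sema6d (2.95-fold), Sema4c (2.57-fold), Sema6a (2.09-fold) and Efnb1 (2.09-fold) completed the day 25 list, of which Sema6a and Efnb1 fell under 2-fold with TMM scaling, and Sema4c, Sema6a and Efnb1 with Otor at 3000 CPM or more (288 cells).

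The members lower in Otor-high cells were led by Efna1, Epha1 and Plxna4 on day 25. Efna1 was at 1.39, 5.85 and 3.60 CPM in Otor-high cells, against 7.38, 47.8 and 89.1 CPM in other Epcam-positive cells, and Efnb2, a transmembrane ephrin, was at 4.54, 10.9 and 14.2 CPM, against 12.5, 39.7 and 107 CPM. Epha1, Epha7, Ephb2, Plxna4, Plxnb1 and Efnb2 were lower in all 3 libraries. Plxna4, a receptor for class 3 and class 6 semaphorins, was at 1.53, 6.00 and 2.06 CPM in Otor-high cells, against 16.7, 40.0 and 25.7 CPM. Sema4f, at 4.49 CPM in other Epcam-positive cells on day 25, had no UMI there in Otor-high cells (floor of 3 UMIs, 0.772 CPM).

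Of 7 endothelial markers, 2 reached 10 CPM in Otor-high cells in each library, with sums of 586, 655 and 769 CPM, against 23.3, 11.6 and 6.31 CPM in other Epcam-positive cells. Emcn alone gave 569, 622 and 724 CPM, and the other marker that reached 10 CPM was either Kdr or Flt1. Pecam1, Cldn5 and Tie1 stayed under 0.4 CPM and Cdh5 at or under 1.80 CPM. Of 5 pericyte markers, Pdgfrb was at 4.49, 91.9 and 132 CPM and the other 4 were under 10 CPM. Of 12 listed otic mesenchyme markers, Otor among them, 7, 8 and 11 reached 10 CPM in Otor-high cells, and 2, 0 and 1 were at 0. In other Epcam-positive cells 3, 4 and 3 reached 10 CPM. The list summed to 2745, 9201 and 5690 CPM in Otor-high cells, against 731, 2529 and 1778 CPM in other Epcam-positive cells. Among the markers outside the class rule, Pou3f4 was at 141, 285 and 225 CPM and Tbx18 at 153, 224 and 249 CPM in Otor-high cells. Epcam, which the class rule used, stood in Otor-high cells at 9.48%, 4.92% and 1.16% of its level in other Epcam-positive cells.

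**Figure D4:**
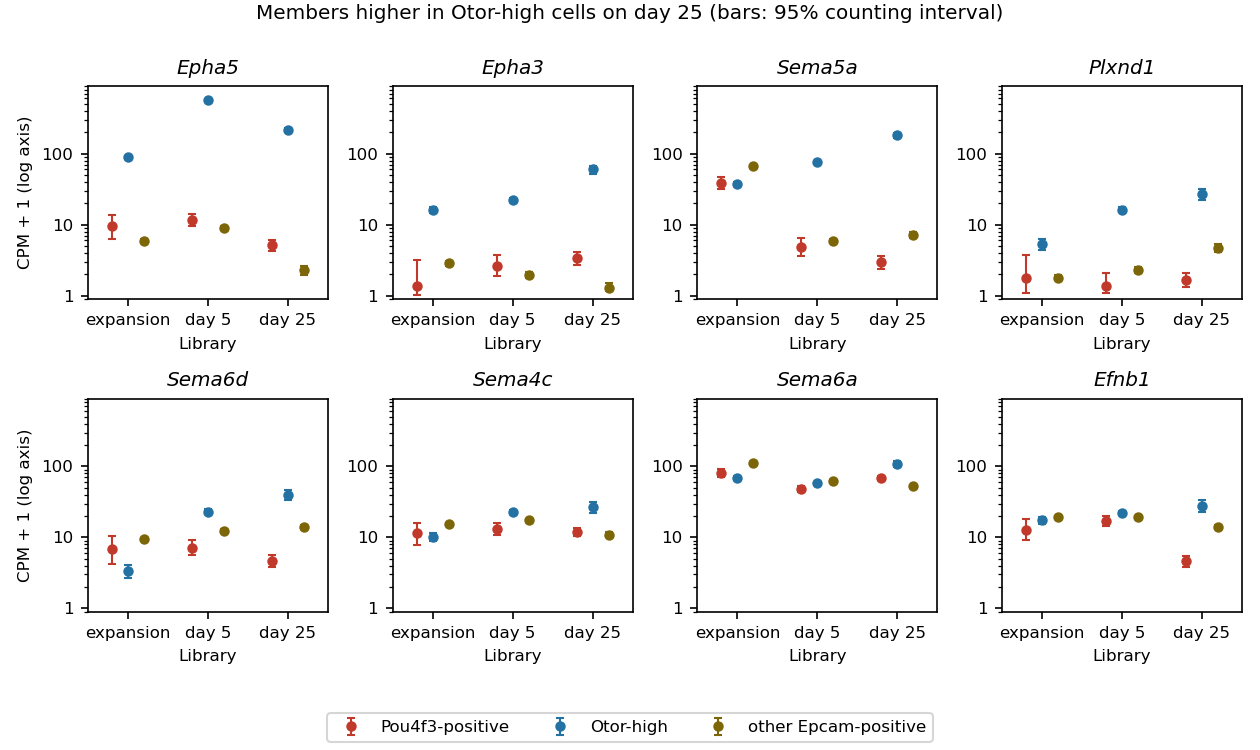
Level (CPM + 1, log axis) of the 8 members called higher in Otor-high than in other Epcam-positive cells on day 25, by library and class of cells, with 95% Poisson counting intervals. Epha5, Epha3 and Plxnd1 lie above both other classes in every library, Sema5a does so on days 5 and 25 (74.9 and 181 CPM), and Sema6a does so on day 25 (108 CPM) but not in expansion or on day 5.

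Set against each other as sums, ligands outnumbered receptors most in Pou4f3-positive cells on day 25. Ligands took 54.6%, 49.1% and 66.5% of ligand and receptor UMIs in Pou4f3-positive cells of the expansion, day 5 and day 25 libraries (exact 95% intervals 52.5 to 56.8, 47.9 to 50.3 and 65.8 to 67.1). They took 45.0%, 26.7% and 45.9% in Otor-high cells and 53.8%, 37.7% and 50.6% in other Epcam-positive cells. Pou4f3-positive cells thus had the highest share on days 5 and 25, while in expansion their interval included the share of other Epcam-positive cells. With at least 3 Pou4f3 UMIs the day 5 share was 59.2% and the day 25 share 67.9%. The day 25 share leaned on few ligands: Efna5 was 85.2% of ephrin-A UMIs and Sema3a 33.0% of semaphorin UMIs in Pou4f3-positive cells. By gene, 5 of 16 measured ligands were higher there than in other Epcam-positive cells (18.8% of all genes) and 6 lower (17% of all genes). Day 25 Pou4f3-positive cells held 14542 ligand and 7338 receptor UMIs. In those with and without a Slc26a5 UMI, Efna5 gave 3520 and 256 of these, Sema3a 2723 and 131, and Sema5b 2053 and 148. The share without these leading ligands was not tested, so a lead of ligands beyond them is not shown. The low share of Otor-high cells rested on a single receptor: without Epha5, an alternative chosen after its level had been seen, the shares there were 54.8%, 48.4% and 58.0%.

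The families contributed unequally. On day 25 semaphorins were 67% of semaphorin and plexin UMIs in Pou4f3-positive cells, 72.2% in Otor-high cells and 50.5% in other Epcam-positive cells. Ephrins were 65.6%, 15.8% and 50.8% of ephrin and Eph UMIs in the same order of classes. Efna5 alone was 85.2% of ephrin-A UMIs in Pou4f3-positive cells, where ephrin-A genes summed to 217 CPM and EphA genes to 104 CPM. In Otor-high cells ephrin-A genes summed to 29.9 CPM and EphA genes to 358 CPM, of which Epha5 made up 60.0%. In other Epcam-positive cells the sums were 138 and 183 CPM, led by Efna1 (64.4%) and Epha7 (48.4%).

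**Figure D5:**
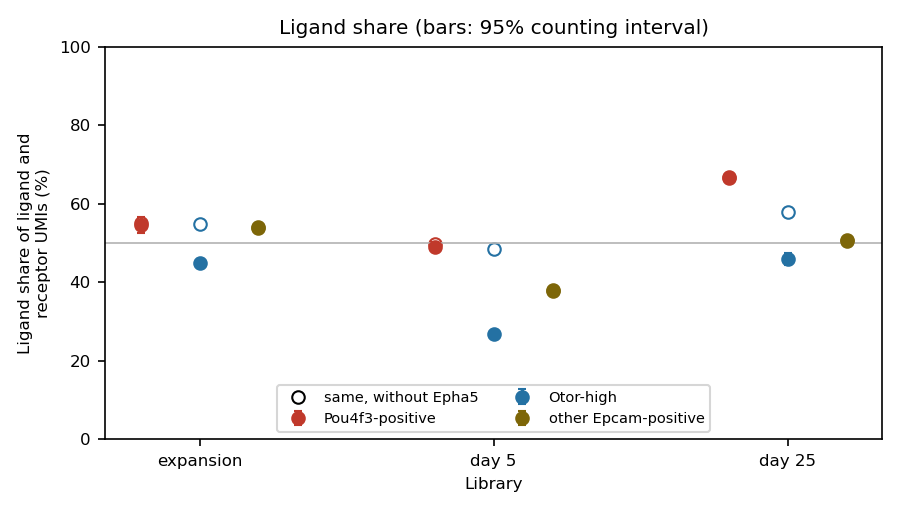
Share of ligand members (Sema, Efna and Efnb genes) among UMIs of ligands and receptors, in percent, by library and class of cells, with exact 95% intervals (filled) and without Epha5 (open). Pou4f3-positive cells reach 66.5% on day 25, and Otor-high cells on day 5 lie at 26.7%, or 48.4% without Epha5.

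Over whole libraries, fewer cells of a type and less RNA per cell cannot be told apart, and Pou4f3-positive cells were 1.06%, 4.96% and 30.03% of kept cells while Otor-high cells were 18.3%, 37.5% and 8.02%. On day 5 relative to expansion, 9 of 30 measured members were higher (15.4% of all genes) and 5 lower (7.92% of all genes). On day 25 relative to day 5, 6 of 28 were higher (19.8% of all genes) and 4 lower (6.33% of all genes). On day 25 relative to expansion, 11 of 30 were higher (31.7% of all genes) and 6 lower (9.66% of all genes). Total-count scaling placed the median of all genes at 0.19, 0.26 and 0.46 (log2) in these comparisons. TMM scaling placed it at −0.14, −0.04 and −0.18, with 8 and 6, 6 and 5, and 7 and 9 members higher and lower, so the direction of the day 25 to expansion balance depended on the scaling. Over all genes, the day 25 to expansion counts were 3027 higher and 924 lower by total counts and 1641 and 2057 by TMM.

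Sema3c and Sema3b, secreted class 3 semaphorins, were highest in expansion. Sema3c was at 44.2, 5.61 and 4.25 CPM in the expansion, day 5 and day 25 libraries, and Sema3b at 11.2, 3.60 and 2.86 CPM. Sema3c was 7.89-fold lower on day 5 than in expansion (7.32 to 8.52) and the same gene was 7.51-fold lower within other Epcam-positive cells (6.93 to 8.16). Plxna2 was at 0.610, 17.4 and 43.9 CPM, 28.6-fold higher on day 5 than in expansion (23.7 to 34.8). Within other Epcam-positive cells it was 27.6-fold higher (22.1 to 34.8). Sema3f was at 2.48, 12.2 and 12 CPM and Efna1 at 6.20, 35.6 and 61.8 CPM.

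Epha5 was at 18.1, 150.5 and 15.1 CPM over the libraries, highest where Otor-high cells were most frequent. Within Otor-high cells it was 2.61-fold lower on day 25 than on day 5 (2.44 to 2.80), compared with 10.0-fold (9.40 to 10.6) over the libraries. Epha2 was at 1.13, 1.46 and 22.9 CPM, 15.7-fold higher on day 25 than on day 5 (13.5 to 18.4), and within other Epcam-positive cells 20.5-fold higher (17.2 to 24.5). Efnb2 was at 11.1, 31.9 and 89.5 CPM, 2.80-fold higher on day 25 than on day 5 and 2.69-fold higher within other Epcam-positive cells. With cells of at most 10% mitochondrial UMIs, Sema5b and Plxna2 were under the bound for day 25 over day 5 (log2 ratios 0.71 and 0.64, in place of 1.58 and 1.28).

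Within other Epcam-positive cells, 8 of 28 measured members were higher on day 5 than in expansion (14.2% of all genes) and 5 lower (10.5% of all genes), and 3 of 26 were higher on day 25 than on day 5 (17.2% of all genes) and 3 lower (6.24% of all genes). The 3 lower on day 25 were Ephb6 (3.13-fold), Efna4 (2.40-fold) and Epha7 (2.11-fold). Within Otor-high cells, 2 of 21 were higher on day 25 than on day 5 (15.7% of all genes), namely Epha3 (2.75-fold) and Sema5a (2.42-fold), and 4 were lower (5.39% of all genes), namely Efna4, Sema4d, Sema6c and Epha5. Efna4, a lipid-anchored ephrin, was lower on day 25 than on day 5 in all 3 classes, by 9.40-fold in Pou4f3-positive, 5.13-fold in Otor-high and 2.40-fold in other Epcam-positive cells.

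Co-receptors, other guidance families and effectors of semaphorin and Eph signalling were read from a list of 58 genes. On day 25, 6 of 33 measured were higher in Pou4f3-positive than in other Epcam-positive cells (18.8% of all genes) and 16 lower (17% of all genes). In Otor-high cells 9 of 35 were higher than in other Epcam-positive cells (13.3% of all genes) and 10 lower (12.7% of all genes). The count higher in Pou4f3-positive cells was near the background. Crmp1, a cytosolic mediator of semaphorin 3A signals, was at 14.2, 30.6 and 41.6 CPM in Pou4f3-positive cells, against 0.0949, 0.214 and 0.318 CPM in other Epcam-positive cells. Its relative Dpysl3 was at 74.1, 150.5 and 139.9 CPM, against 14.9, 27.5 and 24.1 CPM. The neuropilin-1 gene Nrp1, the co-receptor of Sema3a, was at 17.5, 60.6 and 51.2 CPM in Otor-high cells, against 0.983, 1.83 and 3.28 CPM in other Epcam-positive cells, and at 0.768, 1.86 and 0.883 CPM in Pou4f3-positive cells. The neuropilin-2 gene Nrp2 was at 21.1, 44.5 and 16.2 CPM in Pou4f3-positive cells and at 22.8, 10.5 and 23.4 CPM in Otor-high cells, against 5.95, 20.3 and 5.08 CPM in other Epcam-positive cells. Plxdc2, Met, Rnd3 and Itgb1 were among those lower in Pou4f3-positive cells on day 25, at 13.1, 6.77, 17.3 and 84.4 CPM, against 112, 50.6, 114 and 499 CPM.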

How the data were processed

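The authors deposited raw UMI counts per gene and barcode for 3 libraries, made with Cell Ranger per the submitters' processing notes. Per the file headers, day 25 used version 3.1.0, while day 5 and expansion used 3.0.1. Both GRCm38 and hg38 appear as builds in the submitters' processing notes. The annotation release and the cell-calling settings are not given in the sources used here. The expansion, day 5 and day 25 libraries held 29098, 14452 and 6613 barcodes, and kept cells held 185124342, 131820611 and 72472687 UMIs. Intervals cover counting error only, and free RNA and leftover doublets can place UMIs of a gene in cells that do not express it.

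From these counts, doublets were called per library with Scrublet in scanpy 1.11.5 (30 principal components, expected 0.8% per 1000 barcodes) and removed. UMIs were summed over each library and class, and CPM were taken over all genes. Ratios have exact conditional binomial 95% intervals and shares exact Clopper-Pearson 95% intervals (scipy 1.17.1), with 3 UMIs as floor for a count of 0. Calls used a 2-fold difference of CPM + 1 and at least 10 CPM, over all genes. Groups were not tested against each other, since each held 1 library. The script for ratios and calls was run on simulated counts with known folds, which checks the computation and not the calls made here. Alternatives were scaling by TMM (edgeR 4.0.16) or by median of ratios, bounds of 20 and 1 CPM, 5 CPM as pseudocount, doublets kept, at least 1000 genes, at most 10% mitochondrial UMIs, thinning to 2000 UMIs, Pou4f3 or Epcam from 3 UMIs and Otor from 3000 CPM.

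Members with at least 10 CPM in any library or class could be named, and called members were named in order of their difference, up to 12 per direction. Other guidance genes were named up to 6 per comparison, with at least 20 CPM. Members, classes and lists were chosen with earlier results of these data known. Promoter windows came from RefSeq, with 7 of 7 genes matched, and positions from GENCODE M21 (GRCm38).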

Additional observations from a re-analysis of the deposited data

Results flagged for a closer look

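For 6 members the difference between classes of cells pointed one way in one library and the other way in another. Each value is a log2 ratio of CPM + 1 to other Epcam-positive cells of the same library, and the differences between libraries were not tested, since each group held 1 library.

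In Otor-high cells, Sema5a had −0.83 in expansion, 3.69 on day 5 and 4.69 on day 25. Sema6a had −0.69, −0.092 and 1.05 in the same libraries. Sema4c had −0.60 in expansion and 1.28 on day 25, and Efnb1 had −0.18 in expansion and 1.01 on day 25. In Pou4f3-positive cells, Plxnb2 had 0.42 in expansion and −1.20 on day 25, and Sema4d had −1.05 on day 5 and 0.75 on day 25.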

How the results depend on the processing

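No paired analysis was possible because each group held 1 library, and leaving out a library leaves nothing to compare. Of the counts of calls and ligand shares under other settings, 266 kept within 1.5 times the reported count or within the counting interval and 69 did not. The causes were not tested beyond what a setting does by construction (a bound of 20 CPM measures fewer genes, one of 1 CPM more). Depth limits the Pou4f3-positive cells of expansion most (2603982 UMIs).

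Counts are members called, with the reported count in parentheses. With TMM scaling, Pou4f3-positive over other Epcam-positive cells had 4 (2) lower on day 5. Day 25 over expansion had 7 (11) higher with TMM and 7 with median of ratios scaling. With a pseudocount of 5 CPM, the lower counts were 4 (9) for Pou4f3-positive cells on day 25 over day 5, 0 (2) and 0 (1) for Pou4f3-positive over other Epcam-positive cells on day 5 and in expansion, and 3 (5) for day 5 over expansion, over all cells and within other Epcam-positive cells.

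With at least 20 CPM, Otor-high over other Epcam-positive cells had 1 (2) higher and 4 (11) lower in expansion, 3 (5) and 5 (9) on day 5, and 6 (13) lower on day 25. Pou4f3-positive over other Epcam-positive cells had 3 (5) higher and 0 (1) lower in expansion, 0 (2) lower on day 5, and 4 (7) higher and 5 (12) lower on day 25. Day 5 over expansion had 5 (9) and 2 (5) over all cells and 4 (8) and 2 (5) within other Epcam-positive cells, and Otor-high cells had 2 (4) lower on day 25 over day 5. With at least 1 CPM, day 25 over day 5 had 10 (6) higher and 7 (4) lower over all cells, 8 (3) and 8 (3) within other Epcam-positive cells, and 6 (2) and 7 (4) within Otor-high cells. Day 25 over expansion had 18 (11) higher, Otor-high over other Epcam-positive cells in expansion 6 (2) higher, and Pou4f3-positive over other Epcam-positive cells 8 (5) higher on day 5 and 2 (1) lower in expansion.

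With Pou4f3 from 3 UMIs, lower counts were 12 (2) on day 5 and 3 (1) in expansion, and ligand shares of Pou4f3-positive cells were 59.2% on day 5 and 67.9% on day 25. With Otor from 3000 CPM, Otor-high cells on day 25 had 5 (8) higher and a ligand share of 42.3%. With at most 10% mitochondrial UMIs, lower counts in Pou4f3-positive cells were 1 (2) on day 5 and 0 (1) in expansion, and ligand shares were 46.0% and 64.2% in Pou4f3-positive cells and 34.5% and 52.5% in all cells on days 5 and 25. With doublets kept, the day 5 lower count in Pou4f3-positive cells was 1 (2), and ligand shares of Otor-high cells were 46.2% in expansion and 27.4% on day 5.

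Thinned to 2000 UMIs and classed anew, Pou4f3-positive over other Epcam-positive cells had 9 (5) higher and 9 (1) lower in expansion and 3 (5) and 15 (2) on day 5. Of the lower calls, 6 of 9 and 10 of 15 had at most 3 UMIs in Pou4f3-positive cells, whose floor was 11.03 and 5.75 CPM, so these counts rest on few UMIs. Pou4f3-positive cells had 4 (9) lower on day 25 over day 5, and all cells 3 (5) lower on day 5 and 3 (6) lower on day 25 over expansion. Ligand shares were 56.6% and 67.2% in Pou4f3-positive cells on days 5 and 25, 53.3% and 36.6% in other Epcam-positive cells in expansion and on day 5, and 51.9%, 32.0% and 53.6% in all cells. Without Epha5, chosen after seeing the data, they were 54.8%, 48.4% and 58.0% in Otor-high cells, 54.2%, 40.9% and 56.4% in all cells and 54.1% in other Epcam-positive cells of expansion.

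Within Pou4f3-positive cells for day 25 over day 5, Efna1 (−1.08 as reported) had a log2 ratio of 0.072 with Pou4f3 from 3 UMIs. Thinned values were 1.24 for Efna1, 0.76 for Ephb4 and 0.73 for Plxnb1, on 1, 1 and 3 UMIs on day 5, at or under the floor, so they show no reversal.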
